A study of Mus musculus with 2 samples.

Results

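The cells described are CD8 T cells of B16F10 tumours in which a transcript of an inhibitory checkpoint receptor was read. They were chosen by their own counts, namely at least 2 molecules of Cd8a and Cd8b1, no molecule of Cd4 or Foxp3, at least 2 molecules of Cd3e, Cd3d, Cd3g and Trac, and at least 1 molecule of Pdcd1, Havcr2 and Lag3. Fewer than 10 molecules of C1qa, C1qb and C1qc and fewer than 5 of Fscn1 and Ccl22 kept out cells read together with macrophages or mature dendritic cells. Of 14899 cells in all, 10491 had a single sample tag, 200 or more genes read and no more than 25% of their molecules from mitochondrial genes, and 427 of these met the gate. B16F10 is a pigmented mouse melanoma line that grows under the skin of C57BL/6 mice. Leukocytes were sorted by the antigen CD45 at the endpoint from tumours grown from wildtype (WT), Tyr knockout or Oca2 knockout B16F10 cells, from 3 female mice of the C57BL/6 strain per genotype. Each tumour genotype was marked with a sample tag, and all cells went through 1 single-cell capture with a whole transcriptome library. The series title speaks of T cells lacking PD-1, while the labels used here give no Pdcd1 genotype for the mice. No label used here ties tag 8, 9 or 10 to a tumour genotype. Each tag is therefore given as 1 sample of an unnamed genotype that can hold cells of several mice, values of the tags stand side by side, and no test was made between them.

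A CD8 T cell that meets its antigen again and again in a tumour or a chronic infection can enter the state called exhaustion. Such cells carry the inhibitory receptors PD-1, TIM-3 and LAG-3, and the DNA-binding protein TOX helps to set up and keep the state. A smaller pool that still has the transcription factor TCF-1, encoded by Tcf7, renews it, while cells with TIM-3 are more differentiated and hold more killing proteins. Antibodies that block PD-1 or its ligand act on this compartment, and B16F10 tumours are known for responding poorly to them.

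Tags 8, 9 and 10 held 75, 175 and 177 of the gated cells. Among the filtered cells of tag 8 their share was 2.25%, with an exact Clopper-Pearson 95% interval from 1.77 to 2.81%. Tag 9 gave 5.02% (4.32 to 5.80%) and tag 10 gave 4.82% (4.15 to 5.57%). The share was lower in tag 8 than in the other tags, and their intervals did not overlap its own. These intervals, like all below, cover counting error only. Tag 8 also lost the most cells to the mitochondrial limit, 26.2% against 17.4% and 14.9%, and the part of this loss in the lower share was not tested. The gated cells held a median of 7587 molecules, and their summed counts were 669162, 1897667 and 1734192 molecules. CD8 T cells that met the same gate without any checkpoint molecule numbered 310 (78, 96 and 136), with a median of 3685 molecules. Their share was also lowest in tag 8, at 2.34% (1.85 to 2.91%), against 2.75% (2.24 to 3.35%) and 3.71% (3.12 to 4.37%). Tag 8 was lowest too, with overlapping intervals, for conventional CD4 T cells (2.76%, 3.13% and 3.30%) and natural killer cells (2.01%, 2.44% and 2.53%). Deeper cells meet a gate of at least 1 molecule more easily. Counts of called genes, shares of cycling cells and some single genes are therefore also given for thinned cells below. The levels of most named genes are given at full depth only. Exactly 1 checkpoint molecule put 72 of the 427 cells inside the gate, 54 had 2 and 301 had 3 or more, with a median of 5 and a highest count of 32. Just outside the gate, 18 cells fell short by 1 CD8 molecule, 17 held Cd4, 19 exceeded the limit on Fscn1 and Ccl22 and 5 exceeded the C1q limit alone.

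The markers of the label were looked at next. Cd8a was read in 422 cells and Cd8b1 in 403, and Cd4 and Foxp3 were at 0. These values follow from the gate and do not check the label. Tox and Rgs16, which the gate did not use, were read in 61.4% and 84.3% of the cells. Both were listed as markers of the label with earlier results of these data known. In C1q macrophages without T receptor transcripts, a class with a median of 9846.5 molecules that should lack these genes, Tox was read in 1.06% of cells and Rgs16 in 1.71%. Other lymphocytes carried both genes too. Tox was read in 19.4% of the CD8 T cells without checkpoint transcripts, 12.7% of conventional CD4 T cells and 20.8% of natural killer cells. Rgs16 was read in 31.9%, 26.7% and 38.4% of these classes. Transcripts of other cell types were also read. At least 1 molecule of 8 macrophage genes was read in 56.4% of the gated cells and in 45.8% of the CD8 T cells without checkpoint transcripts, at a summed level of 146 to 356 and 167 to 543 CPM (counts scaled to a library of 1000000). The dendritic cell list reached 176 to 999 and 244 to 1632 CPM, the natural killer (NK) list 253 to 373 and 299.5 to 574 CPM, and the fibroblast list 8.07 to 15.8 and 12.8 to 15.4 CPM. At least 5 molecules of the γδ T cell list were read in 31 gated cells, and at least 5 of the melanoma list in 3, where 1 cell put the level of tag 9 at 826 CPM against 41.8 and 31.7 CPM in the other tags. The list of regulatory and CD4 T cell genes stood in the gated cells at 296, 253 and 330 CPM against 70.7, 154 and 137 CPM and in 60.0% against 19.7% of cells, with Cd4 and Foxp3 at 0 by the gate. Activated CD8 T cells also express its gene Il2ra. The NK receptor gene Ncr1 was at 0 in tag 8.

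Pdcd1, Havcr2 and Lag3 chose the cells, so their values are a description. Pdcd1, which encodes PD-1, was read in 86.7%, 83.4% and 77.4% of the cells of tags 8, 9 and 10 and stood at 366, 377 and 309.7 CPM. Havcr2, which encodes TIM-3, was read in 48%, 66.3% and 48.0% of the cells, at 205, 170.2 and 126 CPM. Lag3 was read in 48%, 69.7% and 58.8%, at 121, 155 and 146 CPM. Tag 9, whose cells were the deepest with a median of 8343 molecules against 5305 and 7586, had the highest share of cells with Havcr2 and with Lag3, and tag 8 had the highest level of Havcr2. Thinned to 3000 molecules per cell, Havcr2 was read in 36.9%, 34.4% and 24.2% and Lag3 in 26.2%, 38.2% and 31.8% of the cells, so that tag 8 came first for Havcr2. In the macrophages, which can carry TIM-3 of their own, Pdcd1 was read in 0.98%, Lag3 in 3.75% and Havcr2 in 30.9% of cells.

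All 3 receptors were read together in 139 cells (32.6%), the commonest combination over the tags together. In tag 8 Pdcd1 alone was commoner, in 25 cells against 19. Tag 8 had a share of 25.3% (16.0 to 36.7%), tag 9 of 42.9% (35.4 to 50.5%) and tag 10 of 25.4% (19.2 to 32.5%). Pdcd1 was the only receptor read in 83 cells, Lag3 in 29 and Havcr2 in 34. Pdcd1 came with Lag3 in 78 cells and with Havcr2 in 48, while Havcr2 and Lag3 without Pdcd1 were read in 16. These combinations depend on how deeply a cell was read. Cells with all 3 receptors had a median of 12729 molecules, and those with 1 receptor had 4279. After 379 cells were thinned to 3000 molecules each, all 3 receptors were read in 22 (5.80%), Pdcd1 alone in 106 and none in 63. By tag the thinned share with all 3 was 6.15%, 6.37% and 5.10%, so the higher share of tag 9 was not seen at equal depth. Over the tags Pdcd1 was then read in 60.9%, Lag3 in 33.5% and Havcr2 in 30.6% of cells. Pdcd1 was the receptor most often read in every tag with and without thinning.

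**Figure D1:**
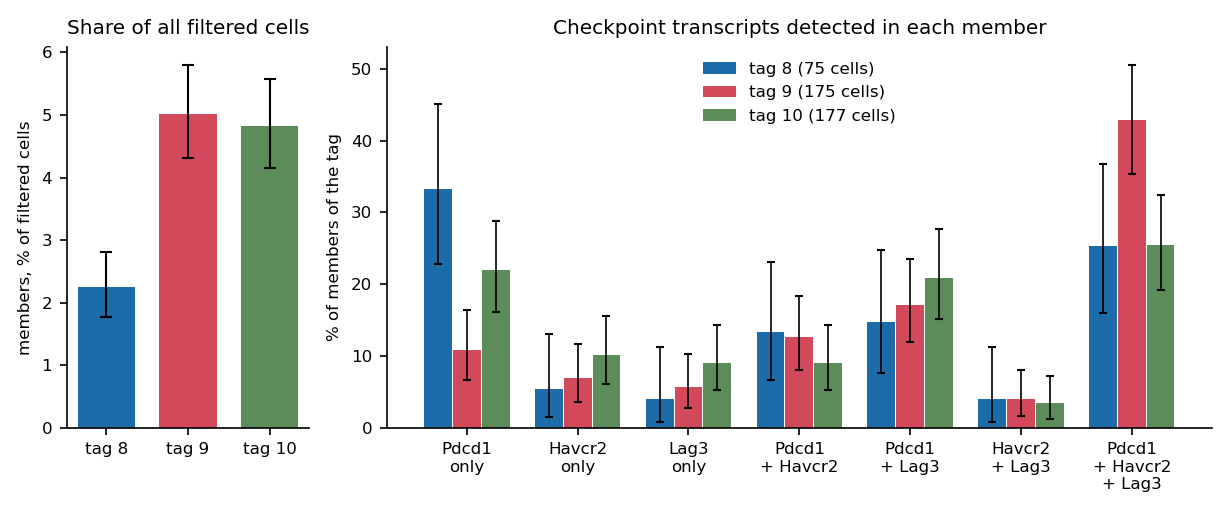
Left, the gated CD8 T cells (members) as a percentage of all filtered cells of each sample tag; right, the percentage of the gated cells of each tag in which each combination of Pdcd1, Havcr2 and Lag3 was read. Bars are shares with exact 95% intervals. Tag 8 has the lowest share of gated cells (2.25%), and tag 9 the highest share with all 3 receptors (42.9%) in cells not thinned; thinned, the tags have 6.15%, 6.37% and 5.10%.

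The gated cells were next set against the 310 CD8 T cells without checkpoint transcripts. Levels were summed per tag and class as CPM, and a gene was called when it held at least 30 molecules over both classes and all 3 tags put it 2-fold or more to the same side. Of 9038 genes, 270 were called higher in the gated cells (2.99%) and 228 lower (2.52%). The split itself follows the checkpoint counts and is described without a test. Because 1 rule over fewer tags calls more, the higher count was 470 without tag 8, 550 without tag 9 and 509 without tag 10. With every cell thinned to 3000 molecules before the gate was applied, the counts were 62 higher and 53 lower. Without cells holding any molecule of 5 lists of other cell types they were 112 and 66, and the part of such transcripts in single results was otherwise not tested. The median log2 ratio over all genes was 0.09. Over 16 lists of T cell biology with 215 distinct genes, not all with enough molecules, 22 genes were called higher and 26 lower. Without tag 10 the first count was 35. The counts of each list in this comparison stand beside the shares of 2.99% and 2.52% over all genes. Among 63 called genes that the lists and the leading genes name, 7 kept their call in all 21 alternatives of processing, namely Rgs16, Tnfrsf9, Cxcr6, Ccl3, Klf2, Klf3 and Satb1. Some of the 21 could not end a call while enough molecules remained, namely leaving out a tag, a 1.5-fold rule and a lower minimum of molecules.

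**Figure D2:**
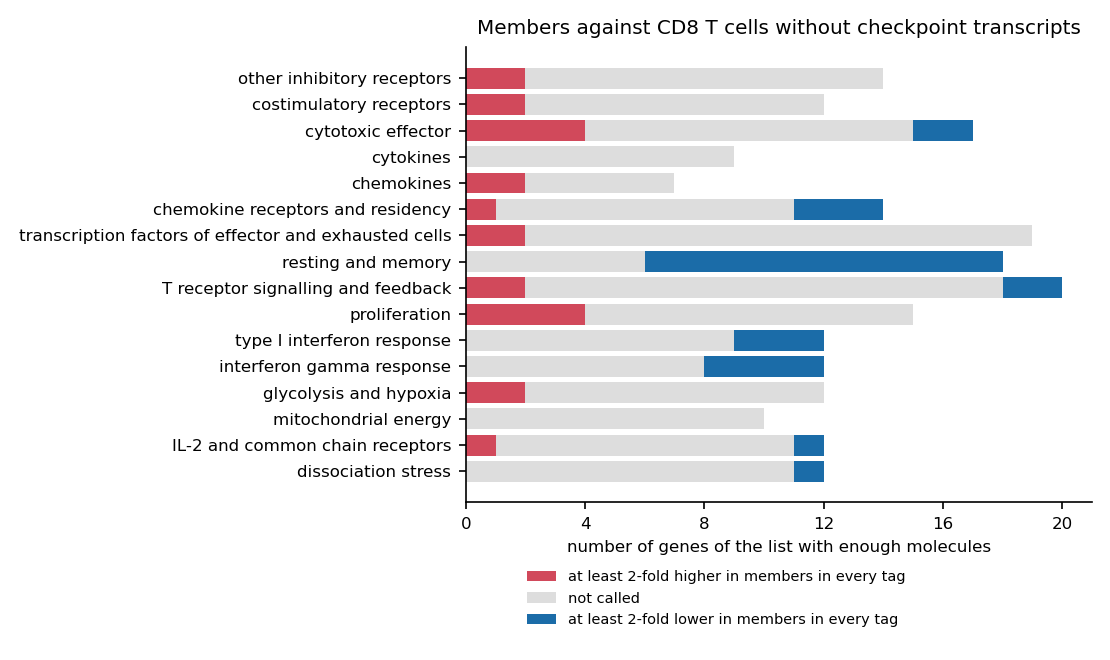
Number of genes in each of 16 lists that were at least 2-fold higher or lower in the gated CD8 T cells (members) than in CD8 T cells without checkpoint transcripts in every tag, or not called. The list of resting and memory genes has 12 of 18 genes lower and none higher, and the proliferation list 4 of 15 higher and none lower. Over all lists 26 genes are called lower here, and 6 among cells without a cell cycle molecule.

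Further inhibitory receptors were mostly not called. Of 14 tested, Ctla4 and Cd200 were higher and none was lower, with a median log2 ratio of 0.91. Ctla4, which encodes a receptor that competes with CD28 for its ligands, stood at 318, 255 and 265 CPM in tags 8, 9 and 10 against 121, 98.2 and 123 CPM. All gated values lay above all values of the other CD8 T cells. Cd200, the gene of a surface protein that dampens myeloid cells, reached 50.8, 33.2 and 39.8 CPM against 13.5, 4.27 and 6.84 CPM. Tigit (log2 ratios 0.47 to 1.12) and Entpd1 (0.95 to 2.95), the gene of the ectoenzyme CD39, missed the call in 1 tag or more.

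Among 12 costimulatory receptors, 2 members of the TNF receptor family were called higher. Tnfrsf9, which encodes 4-1BB, a receptor induced by T receptor signalling, was at 780.1, 924 and 825 CPM against 87.5, 124 and 186 CPM. Its lowest value in the gated cells was thus above the highest in the others, with log2 ratios of 2.15 to 3.16. Tnfrsf4, which encodes OX40, stood at 235, 135 and 124 CPM against 13.5, 17.1 and 23.9 CPM. The gene of its ligand, Tnfsf4, was among the leading genes, at 164, 78.0 and 54.2 CPM against 10.1, 4.27 and 6.84 CPM. The list's median log2 ratio was 0.16, and Icos (-0.71 to 0.00), Cd27 and Cd28 were not called.

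Signalling and transcription genes moved in few members of their lists. Of 20 genes of T receptor signalling and feedback, Rgs16 and Dusp4 were higher and Dusp2 and Socs3 lower, with a median log2 ratio of -0.60. Rgs16, which encodes a brake on G protein signalling, was at 943, 1077 and 963 CPM against 151, 249.9 and 226 CPM, a separation of more than 2 log2 units in each tag. Dusp2, the gene of a phosphatase of the MAP kinases, went the other way, at 835, 817 and 852 CPM against 2012, 1854 and 2462 CPM. Its call was lost in 6 of the 21 alternatives, and in cells of 3000 to 8000 molecules its median log2 ratio was -0.57. Of 19 transcription factors of effector and exhausted cells, Prdm1 and Rbpj were higher. Prdm1 encodes Blimp-1 and stood at 46.3, 43.2 and 46.7 CPM against 13.5, 21.4 and 22.2 CPM. Tox reached 193, 258 and 224 CPM against 101, 66.2 and 73.5 CPM, log2 ratios of 0.93, 1.96 and 1.61, and so missed the call in tag 8 only. Eomes (-0.49 to 0.26), Tbx21 (0.23 to 0.86) and Nr4a2 (0.09 to 0.54) were not called.

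Killing genes were split. Of 17 cytotoxic genes tested, Prf1, Gzmc, Gzme and Gzmf were called higher and Gzma and Gzmm lower, with a median log2 ratio of 0.73. Prf1 encodes perforin, the protein that opens the target membrane, and stood at 432, 346 and 194 CPM against 37.0, 10.7 and 46.1 CPM. It was read in 48.5% of the gated cells, in 7.74% of the other CD8 T cells and in 0.57% of the macrophages, and after thinning in 32.2%, 5.19% and 0.09%. Among cells without a cell cycle molecule its call ended, with a median log2 ratio of 1.30. Gzmb, the main killing protease of such cells, was at 1476, 1516 and 1142 CPM against 360.1, 453 and 822 CPM, log2 ratios of 2.04, 1.74 and 0.47, and was not called because of tag 10. Gzma was at 145, 115 and 258 CPM against 394, 553 and 733 CPM. It was read in 68 of 427 gated cells and in 71 of 310 others, and its call was lost in 6 of the 21 alternatives. Nkg7, Fasl and Gzmk were not called.

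The granzyme genes Gzmc, Gzmd, Gzme and Gzmf lie beside Gzmb on chromosome 14, between 56117626 and 56234656 on GRCm38, and their products are proteases of strongly activated killer cells. Their 1939 molecules came from 77 of the 427 gated cells (18.0%), namely 11, 37 and 29 cells of tags 8, 9 and 10, and the 5 cells with the most held 71.7% of them. Of the CD8 T cells without checkpoint transcripts 14 of 310 had any (4.52%), as did 8 of 322 conventional CD4 T cells and 49 of 245 NK cells (20.0%). Gzmf reached 194, 62.2 and 108 CPM against 3.37, 4.27 and 0 CPM. Gzme stood at 106, 35.3 and 60.0 CPM, with no molecule in the other CD8 T cells, which put its log2 ratio at 2.46 or more in every tag when a count of 0 was set to 3 counts. Gzmd was read in 12 gated cells, and 74 of its 75 molecules of tag 10 were in 1 cell. The sums of these genes are therefore sums over few cells. Cells with one of the 4 granzymes held Havcr2 in 80.5% and Prf1 in 79.2%, against 50% and 41.7% of the other gated cells, with median depths of 13283 and 6603.5 molecules.

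Of 9 cytokine genes none was called, and of 7 chemokine genes Ccl3 and Ccl1 were higher. Ifng, the gene of interferon gamma, stood at 632, 240 and 303 CPM against 141, 83.3 and 169 CPM, log2 ratios of 2.16, 1.53 and 0.84, so it missed the call in tag 10. In tag 8, 249 of its 423 molecules were in 1 cell, and without that cell's molecules its level there was 260 CPM. Ccl3, which encodes a chemokine that draws leukocytes, stood at 1028, 368 and 311 CPM against 63.9, 51.3 and 115 CPM. In tag 8, 272 of its 688 molecules were in 1 cell, and without that cell's molecules its level there was 622 CPM. Ccl1 was read in 31 gated cells, with 8 of its 16 molecules of tag 8 and 45 of 64 of tag 9 in 1 cell each. The other CD8 T cells had 0 molecules of Ccl1 in these 2 tags, so its ratios there rest on the floor of 3 counts. Macrophages also express Ccl3, which was read in 87.4% of them and in 45.9% of the gated cells. Ccl5 (log2 ratios -1.38 to -0.49) and Ccl4 (-0.37 to 0.36) were not called. Of 14 genes of homing and residence, Cxcr6, a receptor of T cells settled in tissues, was higher, at 288, 351 and 317 CPM against 53.8, 72.6 and 128 CPM. S1pr1, Itgae and Cd69 were lower. S1pr1, whose product lets T cells leave tissues, stood at 65.8, 22.1 and 27.7 CPM against 209, 229 and 186 CPM. Itgae was read in 6 gated cells, at 2.99, 5.80 and 4.61 CPM against 30.3, 19.2 and 18.8 CPM.

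The list of resting and memory genes had the most calls. Of 18 genes, 12 were lower in every tag and none higher, and the median log2 ratio of the list was -2.11. Over all lists together, the 26 genes called lower fell to 6 among cells without a cell cycle molecule. At most 6 of the 12 calls of this list could remain there. The count was 7 in cells of 3000 to 8000 molecules, 9 with the gate at 3000 molecules and 11 by mean CPM. It was 30 to 36 when a tag was left out. Fewer cells or molecules entered most of these settings, and what ended each call was not tested. Klf2, which encodes a factor that keeps T cells circulating, was at 32.9, 26.9 and 25.9 CPM against 357, 329 and 212 CPM. Klf3, a related factor gene, was at 28.4, 19.5 and 30.6 CPM against 212, 177 and 220.4 CPM. Satb1, which encodes an organiser of chromatin in T cells, was at 77.7, 107.5 and 85.3 CPM against 612, 839 and 407 CPM. These 3 genes were lower by more than 2 log2 units in each tag. Tcf7 stood at 121, 35.8 and 62.3 CPM against 411, 367 and 301 CPM, and Il7r, the gene of the interleukin-7 receptor, at 73.2, 16.9 and 39.2 CPM against 384, 361 and 217 CPM. Tag 8 was the highest of the 3 tags for both among the gated cells. The call of Tcf7 was lost in 4 of the 21 alternatives and that of Il7r in 1. Lef1, S1pr1, Id3, Ly6c2, Foxp1 and Txnip were among the other genes called lower, while Bach2, Slamf6, Bcl2 and Ccr7 were not called, nor was Cd44 (median log2 ratio 0.00).

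**Figure D3:**
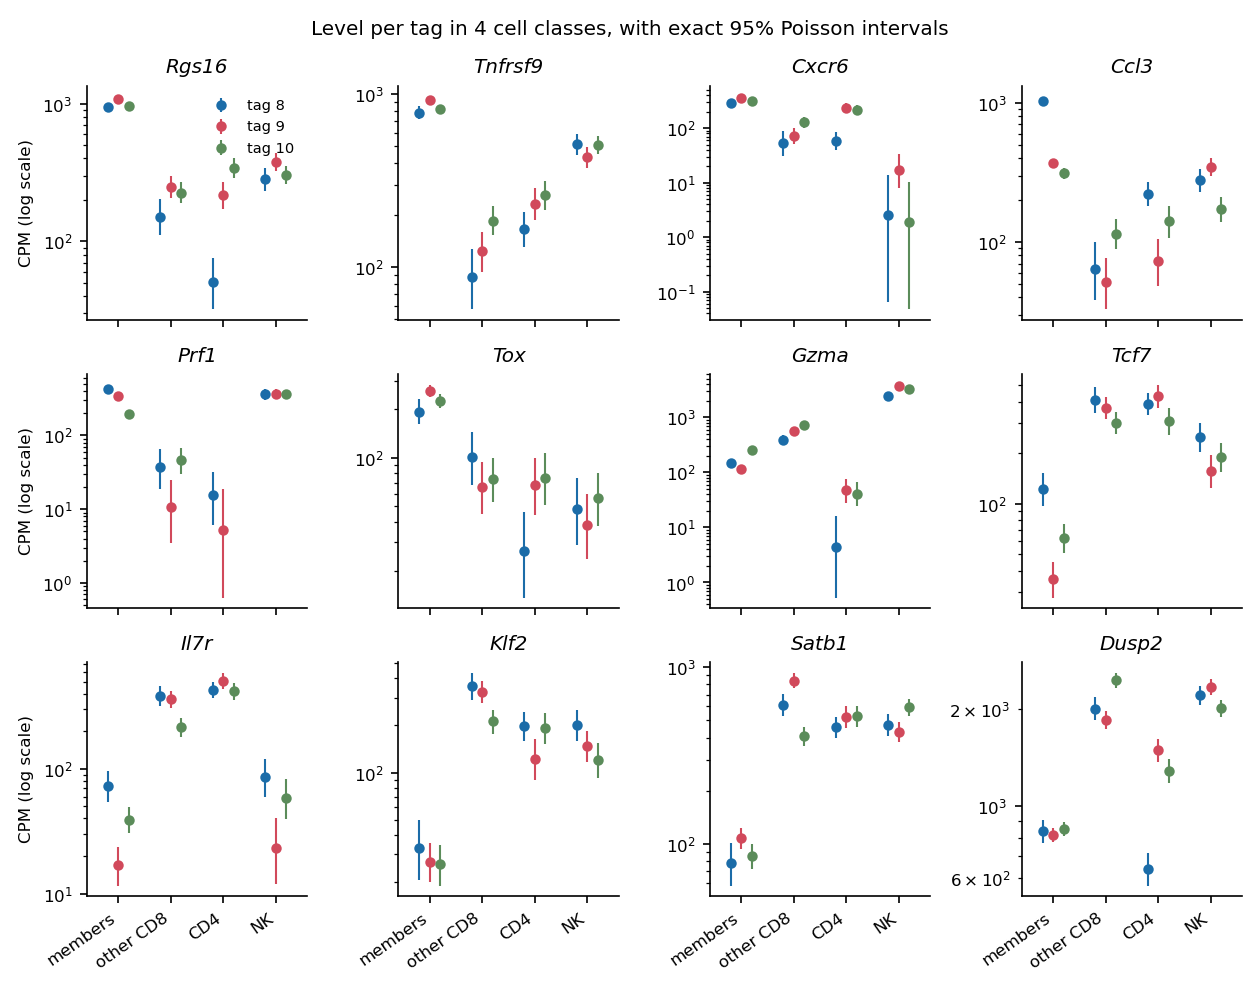
Level of 12 genes in CPM on a log scale, per sample tag, in the gated CD8 T cells (members), CD8 T cells without checkpoint transcripts (other CD8), conventional CD4 T cells and NK cells; points are sums over cells, bars exact 95% Poisson intervals, and a class with a count of 0 in a tag has no point. Rgs16, Tnfrsf9 and Cxcr6 are higher in all 3 tags of the gated cells than in any tag of the other CD8 T cells, and Klf2, Satb1, Tcf7 and Il7r lower.

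Cell cycle genes were called in 4 of 15 cases, all higher, with a median log2 ratio of 1.15. These were Birc5, Cdk1, Pclaf and Tyms. Cdk1, the kinase gene that drives entry into mitosis, stood at 109, 102 and 100.3 CPM against 33.65, 32.0 and 37.6 CPM. Mki67 was at 330.3, 271 and 293 CPM against 195, 160.2 and 181 CPM and was not called. A cell was counted as cycling when it held at least 2 molecules of 7 cell cycle genes. By this count 53.9% of the gated cells were cycling (45.3%, 62.3% and 49.2% in the 3 tags), against 20.97% of the other CD8 T cells, 10.6% of the CD4 T cells and 26.1% of the NK cells. The macrophages gave 23.3%. After thinning to 3000 molecules, the shares were 42.7% (40%, 46.5% and 40.1%), 17.9%, 12.4%, 24.9% and 6.38%, with 48 gated cells too shallow to enter. In every tag the gated cells held the highest share of the 5 classes, thinned or not.

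Against the other CD8 T cells, interferon-stimulated genes were called only in the lower direction, which did not hold against NK cells (below). Of 12 type I interferon genes, Ifit1, Ifit3 and Rtp4 were lower, with a median log2 ratio of -1.14. Ifit3 stood at 26.9, 11.6 and 17.3 CPM against 101, 47.0 and 129.9 CPM. Thinning to 1000 molecules turned the median log2 ratio of Ifit3 to 0.08, and leaving out cells with a molecule of 5 other marker lists turned that of Ifit1 to 0.26. Of 12 interferon gamma genes, Irf1, Gbp2, Gbp4 and Iigp1 were lower. Irf1, a transcription factor gene, stood at 115, 101 and 94.0 CPM against 363, 286 and 263 CPM. Of 12 genes of glycolysis and hypoxia, Pgk1 and Tpi1 were higher, and of 10 nuclear genes of mitochondrial energy none was called, with median log2 ratios of 0.91 and 0.76. Tpi1, a glycolytic enzyme gene, stood at 379.6, 464 and 316 CPM against 87.5, 117 and 101 CPM. Of 12 genes of the interleukin-2 and common chain receptors, Il2ra was higher and Il7r lower, and of 12 genes induced by dissociation Zfp36 was lower.

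Outside the lists, the genes of the largest median log2 ratios were Penk, Gldc, Tnfsf4, Slc17a6, Galnt3, Tk1 and Gm36723 on the higher side and Igfbp4, Pik3ip1, Sidt1, Btbd11, Ifi208, Rflnb and Tdrp on the lower side. Penk, which encodes the precursor of the enkephalin peptides, stood at 495, 48.0 and 132 CPM and had no molecule in the other CD8 T cells, a log2 ratio of at least 2.90 in every tag against a floor of 3 counts. It was read in 40 gated cells, and 157 of its 331 molecules of tag 8 were in 1 cell. Gldc, the gene of an enzyme of glycine breakdown, was spread over 90 cells, at 55.3, 40.05 and 38.6 CPM against 3.37, 2.14 and 3.42 CPM. Galnt3, the gene of an enzyme that starts O-linked sugar chains, was read in 133 cells, at 58.3, 59.0 and 55.4 CPM against 3.37, 4.27 and 6.84 CPM. With cells thinned to 3000 molecules and gated anew, the median log2 ratio of Galnt3 was 2.75, that of Gldc 0.63 and that of Penk 0.35, and only the first was still called.

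Against 322 conventional CD4 T cells, with Cd4 and without Foxp3 or CD8 transcripts, 280 of 9162 genes were called higher (3.06%) and 361 lower (3.94%), at a median log2 ratio of 0.01. Without tag 8 these counts were 770 and 628, and without the deepest cell of each tag and class the first was 423. Of 16 killing genes 10 were higher and none lower. Prf1 stood at 15.4, 5.23 and 0 CPM in the CD4 T cells, and Gzmb at 128, 193 and 537 CPM. Gzma, lower than in the other CD8 T cells, was higher than in the CD4 T cells, which had 4.399, 47.0 and 41.3 CPM. Of 7 chemokine genes Ccl3, Ccl5, Ccl1 and Xcl1 were higher. Tox was called here, with 26.4, 67.9 and 75.3 CPM in the CD4 T cells, and so was Eomes, with 6.598, 36.6 and 4.86 CPM against 178, 143 and 116 CPM. Maf, a factor gene of helper T cells, was lower, at 32.9, 21.1 and 16.7 CPM against 422, 766 and 498 CPM. Icos was lower too, at 353, 501 and 597 CPM against 1113, 2099 and 1984 CPM. The resting and memory list again had 12 of 18 genes lower, and 8 of 12 type I interferon genes were lower. Rsad2 and Rtp4 of the latter had median log2 ratios of 0.45 and 0.01 among cells without a cell cycle molecule, and Ifit3 0.09 among cells of at least 5000 molecules. Ctla4 and Tnfrsf4 did not separate the classes, with log2 ratios of -0.53 to 0.29 and -1.15 to 0.71.

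Against 245 NK cells, 255 of 9092 genes were called higher (2.8%) and 320 lower (3.52%), at a median log2 ratio of 0.08, and the first count was 409 without tag 8 and 405 without tag 9. NK cells share killing genes with CD8 T cells but lack the T receptor. Prf1 stood at 360.2, 368 and 363 CPM in NK cells and was not called. Of 17 killing genes Gzmd, Gzme, Gzmf and Gzmk were higher, and Gzma was lower, with 2464, 3710 and 3199 CPM in NK cells. Among 19 transcription factors, Tox, Prdm1, Batf, Irf4 and Rbpj were higher and Eomes and Maf lower. Tox was at 47.9, 38.6 and 56.4 CPM in NK cells and Eomes at 567, 484 and 462 CPM. Cxcr6 had 2.52, 17.35 and 1.88 CPM there, against at least 288 CPM in the gated cells. Tnfrsf4 had 5.04, 5.78 and 5.64 CPM. Tnfrsf9 was not called, with 514, 432 and 511 CPM in NK cells. Of 12 type I interferon genes Ifit1 and Ifi27l2a were higher and none was lower, with a median log2 ratio of 0.26. None of 12 interferon gamma genes was called. No proliferation gene was called, and 7 of 12 dissociation genes were lower. Hspa1a and Hspa1b of that list had median log2 ratios of 0.68 and 1.25 once cells with molecules of 5 other marker lists were left out.

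The gated cells differed among themselves in Tcf7 and Havcr2. Tcf7 without Havcr2 was read in 64 cells (20, 16 and 28), which is 26.7%, 9.14% and 15.8% of the 3 tags. Havcr2 was read in 237 cells (36, 116 and 85), with or without Tcf7. Both were read in 29 cells and neither in 126. In macrophages, Tcf7 was read in 1.06% of cells. Cells with Havcr2 were deeper, with a median of 10028 molecules against 5523. Of 7972 genes, 54 were at least 2-fold higher in every tag in cells with Havcr2 (0.677%) and 57 lower (0.715%). After thinning to 3000 molecules the counts were 23 (0.784%) and 17 (0.579%) of 2935 genes.

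Prf1, Gzmb, Ccl3 and Cxcr6 were among the genes called higher with Havcr2. Prf1 was at 664, 446 and 277 CPM with Havcr2 and at 44.7, 33.3 and 34.8 CPM in cells with Tcf7 alone. Gzmb was at 2243, 1858 and 1538 CPM against 70.3, 419 and 259 CPM, and Ccl3 at 1493, 436 and 421 CPM against 44.7, 39.9 and 197 CPM. Cxcr6 was at 385, 368 and 346 CPM against 51.1, 119.8 and 50.25 CPM. These 4 genes were also called after thinning, with median log2 ratios of 3.97, 1.94, 3.35 and 1.91. Il7r was lower, at 31.3, 12.4 and 22.5 CPM against 134, 73.2 and 108 CPM. Slamf6, a marker gene of renewing exhausted cells, was at 14.4, 18.2 and 20.6 CPM against 109, 53.2 and 65.7 CPM. Thinned, Il7r, S1pr1, Ccr7 and Klf3 were lower, at median log2 ratios of -2.88, -3.79, -3.60 and -2.11. Tox did not separate the groups, with 197, 271 and 238 CPM against 204, 140 and 162 CPM. Rgs16 was at 1185, 1139 and 976 CPM against 332, 612 and 595 CPM, log2 ratios of 0.71 to 1.84, and was not called.

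**Figure D4:**
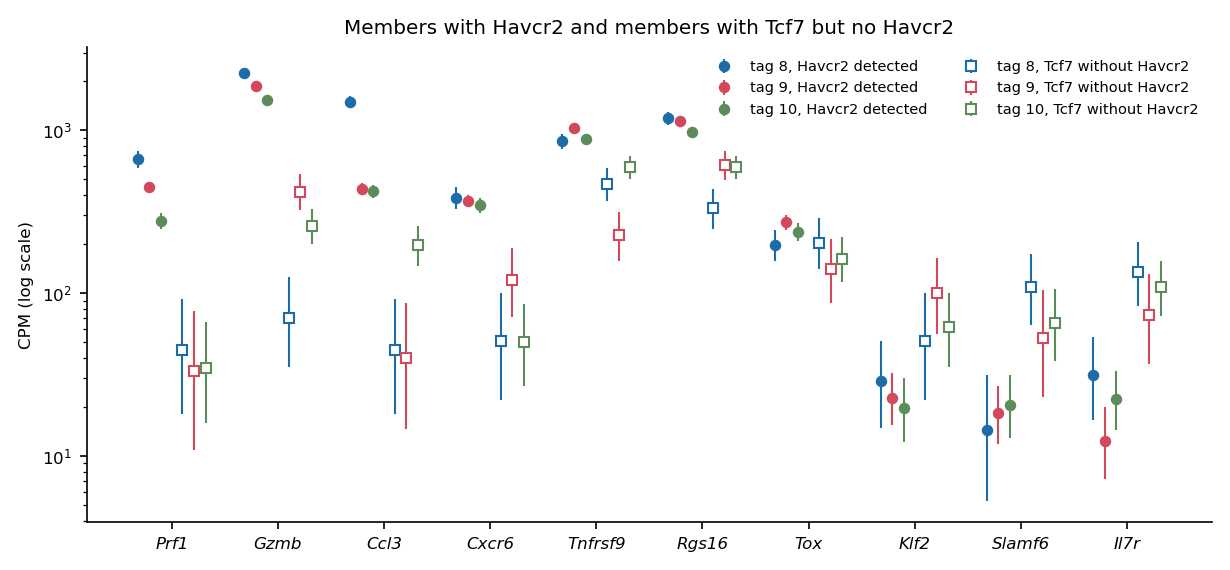
Level of 10 genes in CPM on a log scale in gated CD8 T cells with Havcr2 (filled circles, 36, 116 and 85 cells of tags 8, 9 and 10) and in those with Tcf7 but no Havcr2 (open squares, 20, 16 and 28 cells), with exact 95% Poisson intervals. Prf1, Gzmb, Ccl3 and Cxcr6 are higher with Havcr2 in every tag, Slamf6 and Il7r lower, and the Tox values of the groups overlap.

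Cells were also split by the number of receptors read. In cells with all 3 receptors against cells with 1, 52 of 7698 genes were higher (0.676%) and 109 lower (1.42%). Prf1 was at 829, 487 and 335 CPM against 55.9, 64.5 and 48.8 CPM. Tcf7 was at 3.23, 12.4 and 2.74 CPM against 335, 95.1 and 169.6 CPM. After thinning, 15 of 3545 genes were higher (0.423%), among them Entpd1, Fasl and Slc17a6, and 3 were lower (0.0846%), namely Emb, Arap2 and Zc3h15. Only 22 thinned cells held all 3 receptors. Emb, which encodes the adhesion protein embigin, was also lower with Havcr2 than with Tcf7 alone, thinned or not.

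Cycling cells were chosen by 7 cell cycle genes. Of 8456 genes, 206 were higher in cycling cells (2.44%) and 108 lower (1.28%), and of 5259 genes in thinned cells 107 (2.03%) and 47 (0.894%). Ccna2, the gene of cyclin A2 and not one of the 7 genes used for the choice, stood at 208, 187 and 206.5 CPM against 0, 0 and 5.89 CPM. Il7r was lower in cycling cells, at 19.3, 8.79 and 18.0 CPM against 197, 45.3 and 90.3 CPM. Ifit3 was also lower, at 2.15, 6.76 and 8.16 CPM against 83.6, 28.6 and 39.3 CPM. Both calls held after thinning. Tox was at 195, 262 and 208 CPM in cycling cells and at 187, 246 and 261 CPM in the others, and Prf1, Gzmb and Rgs16 were not called.

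Each T cell carries 1 rearranged T receptor β chain, whose variable (V) segment comes from a Trbv gene, so cells of 1 clone share it. This segment lies at the 5′ end of the message and was read in part of the cells only. A Trbv transcript was read in 248 of 427 gated cells (58.1%; 49, 100 and 99), in 119 of 310 other CD8 T cells (38.4%) and in 106 of 322 CD4 T cells (32.9%). In the macrophages it was read in 7 of 1228 cells (0.57%). Of the 248 cells, 219 held a single Trbv gene (88.3%), 25 held 2 and 4 held 3 or more. The files used here hold no joined receptor sequences, so a shared segment does not show a shared clone. Shares below are of the cells with any Trbv, which the gate did not read.

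The exon that carries the V region is shown for the segments that led in the gated cells. All lie on the plus strand of chromosome 6 on GRCm38, are read from the GENCODE vM21 transcripts, and run 5′ to 3′. Capitals mark the last TGT codon in frame to the exon's end, which is the conserved cysteine and the start of the loop that touches the antigen (CDR3).

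Trbv16, chr6:41151933-41152230: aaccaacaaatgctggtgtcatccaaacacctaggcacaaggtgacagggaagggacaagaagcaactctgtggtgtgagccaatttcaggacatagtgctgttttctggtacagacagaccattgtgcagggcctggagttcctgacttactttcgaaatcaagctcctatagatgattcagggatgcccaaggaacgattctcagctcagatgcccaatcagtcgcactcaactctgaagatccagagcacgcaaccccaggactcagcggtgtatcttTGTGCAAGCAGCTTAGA

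Trbv13-1, chr6:41116175-41116468: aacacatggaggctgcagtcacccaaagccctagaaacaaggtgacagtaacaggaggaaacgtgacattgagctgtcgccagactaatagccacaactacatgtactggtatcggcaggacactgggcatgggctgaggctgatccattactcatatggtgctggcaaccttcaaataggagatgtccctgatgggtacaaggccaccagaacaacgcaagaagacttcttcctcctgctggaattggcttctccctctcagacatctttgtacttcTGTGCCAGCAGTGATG

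Trbv19, chr6:41178749-41179048: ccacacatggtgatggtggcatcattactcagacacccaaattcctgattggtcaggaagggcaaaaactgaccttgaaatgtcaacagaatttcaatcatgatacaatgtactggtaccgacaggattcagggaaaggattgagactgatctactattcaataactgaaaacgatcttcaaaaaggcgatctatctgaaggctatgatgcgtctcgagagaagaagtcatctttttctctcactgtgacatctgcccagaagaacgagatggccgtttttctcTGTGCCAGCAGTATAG

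Trbv2, chr6:41047701-41047995: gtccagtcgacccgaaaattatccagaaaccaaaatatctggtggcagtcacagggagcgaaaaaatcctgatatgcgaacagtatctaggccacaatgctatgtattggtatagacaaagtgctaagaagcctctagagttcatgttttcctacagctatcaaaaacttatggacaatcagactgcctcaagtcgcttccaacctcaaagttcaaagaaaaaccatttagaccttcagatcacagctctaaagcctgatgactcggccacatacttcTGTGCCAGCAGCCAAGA

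The sequences bear on how surely a read can be assigned. Each was compared with the last coding exons of the annotated Trbv genes on the plus strand, 21 genes with itself counted. Trbv genes on the minus strand were not compared. The longest run shared with another gene was 21 bases for Trbv16 (with Trbv15), 34 for Trbv13-1 (with Trbv13-3), 16 for Trbv19 (with Trbv14) and 18 for Trbv2 (with Trbv3). The genes to be described were chosen after their values were seen.

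Trbv16 was the most frequent segment of the gated cells of tags 8 and 9 and of all tags together, and in tag 10 it came after Trbv2 and Trbv19. It was read in 13 of 49 cells in tag 8 (26.5%; 14.9 to 41.1%), 33 of 100 in tag 9 (33%; 23.9 to 43.1%) and 16 of 99 in tag 10 (16.2%; 9.53 to 24.9%). In the CD8 T cells without checkpoint transcripts it was read in 1 of 32, 4 of 33 and 5 of 54 cells (3.12%, 12.1% and 9.26%), and in 5 of 106 CD4 T cells. The gated cells held the higher share in every tag, and the intervals overlapped in each. Trbv12-2 led in the other CD8 T cells (20 of 119) and Trbv19 in the CD4 T cells (20 of 106).

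Other segments differed between the tags. Trbv13-1 was read in 28 of 100 cells in tag 9 (28%; 19.5 to 37.9%), against 4 of 49 in tag 8 (8.16%) and 2 of 99 in tag 10 (2.02%; 0.25 to 7.11%). Trbv2 was read in 25 of 99 cells in tag 10 (25.3%), 11 of 100 in tag 9 and 0 of 49 in tag 8, where a count of 0, taken as fewer than 3 counts, allows a share of up to 6.12% of cells in which it is read. Trbv19 was read in 23 of 99 cells in tag 10 (23.2%), 7 of 100 in tag 9 and 6 of 49 in tag 8. Trbv14 was read in 9 of 49 cells in tag 8 (18.4%), none in tag 9 and 2 in tag 10. The inverse Simpson number, which counts the segments as if all were equally frequent, was 8.1, 5.84 and 7.66 in the gated cells of the 3 tags, 11.8, 10.98 and 10.8 in the other CD8 T cells and 7.78, 9.60 and 10.1 in the CD4 T cells. In tag 9, Trav3-3 was read in 9 of the 11 Trbv13-1 cells in which any α chain V gene was read, and all 9 of its Trav3-3 cells with any Trbv held Trbv13-1.

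**Figure D5:**
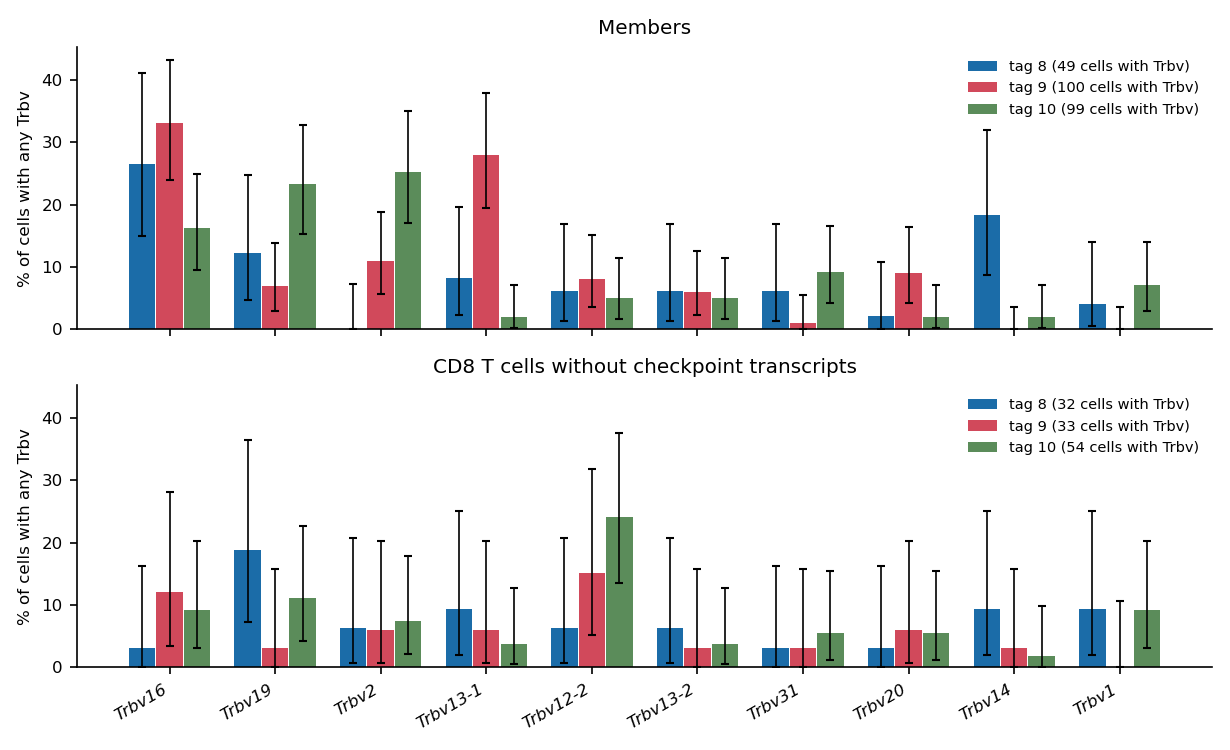
Percentage of the cells with any Trbv transcript in which each of 10 Trbv genes was read, per sample tag, in the gated CD8 T cells (top, members) and in CD8 T cells without checkpoint transcripts (bottom), with exact 95% intervals. Trbv16 is frequent in all 3 tags of the gated cells, Trbv13-1 in tag 9 (28%), Trbv2 and Trbv19 in tag 10 (25.3% and 23.2%) and Trbv14 in tag 8 (18.4%).

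The 62 gated cells with Trbv16 were on the Havcr2 side of the gated cells. Havcr2 was read in 84.6%, 84.8% and 68.8% of them in tags 8, 9 and 10, against 50%, 67.2% and 51.8% of the 186 cells with another Trbv. Tcf7 was read in 3 of 62 (4.84%) and in 56 of 186 (30.1%). Prf1 was read in 77.4% and 50%, with the Trbv16 cells higher in every tag. One of the granzymes C to F was read in 32.3% and 15.6% over the tags, but in tag 9 in 18.2% with Trbv16 and 22.4% without. Cycling cells made up 67.7% and 57.0%, but in tag 10 56.2% with Trbv16 and 59.0% without. The Trbv16 cells were also deeper, with medians of 12375 and 9057.5 molecules, and the part of this depth in the shares was not tested. Among genes called between cells with Havcr2 and cells with Tcf7 alone, Trbv16 itself was higher with Havcr2, at a median log2 ratio of 3.28. Tcf7 was read in only 1, 0 and 2 of the Trbv16 cells of tags 8, 9 and 10. The Tcf7 side of this ratio thus holds at most these cells, and in tag 9 it rests on the floor of 3 counts.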

How the data were processed

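Molecule counts were deposited by the authors, per the file headers, as output of BD's WTA Multiplex Rhapsody Analysis Pipeline 1.9.1 for GRCm38 and GENCODE vM19, while the submitters' processing notes name GRCm39. The deposited table holds raw counts for 24510 genes in 14899 cells with a tag call each, and cells called multiplets were left out. No other doublet caller was run. Sums over the cells of a tag and class were scaled to CPM, with exact Poisson intervals. A gene entered a comparison from 30 molecules over the 2 classes on, and a count of 0 was set to 3 counts per tag and class. The rule of size was tried on simulated sums drawn around 1 shared profile with known folds. These sums hold no differences between cells, so they cannot show how the rule acts where 1 cell holds most molecules of a gene. Thinning drew 3000 molecules per cell (1000 as an alternative) with 1 seed. There is 1 tag per unnamed genotype, so no p-value is given, and cells are not replicates. The members and gene lists were chosen with earlier results of these data known. Named genes are list members, the leading genes of each comparison, those with the largest spread between tags, and Trbv genes. Python 3.11.15, numpy 2.4.6, scipy 1.17.1 and pandas 2.3.3 were used, with edgeR 4.0.16 in R 4.3.3 for TMM factors. Alternatives changed scaling, depth, gate, filters and tags.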

Additional observations from a re-analysis of the deposited data

Results flagged for a closer look

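Of 1271 filtered cells that the tag calls name multiplets, 53 also met the transcript gate (4.17%; 3.14 to 5.42%), against 4.07% of the single-tag cells. They were not used in any comparison. They held a median of 10857 molecules, against 7587 in the gated single-tag cells, and Lyz2 was read in 34 and Cd74 in 40 of them. Among cells over the mitochondrial limit, 3 of 2129 met the gate (0.14%; 0.029 to 0.41%), 2 in tag 9 and 1 in tag 10.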

How the results depend on the processing

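Counts of genes over the alternatives are given in the order higher and lower. Against CD8 T cells without checkpoint transcripts (270 and 228) they were 86 and 52 with cells thinned to 1000 molecules. They were 62 and 53 with the gate applied at 3000 molecules, and 126 and 144 in cells of at least 5000 molecules. Without cells holding other marker genes they were 112 and 66, and without cells holding a cell cycle molecule 104 and 48. The mean of single-cell CPM gave 108 lower, and leaving out each tag 470 to 550 higher. Against CD4 T cells (280 and 361) the same settings gave 118 and 133, 164 and 155, 94 and 169, 149 and 156, and 105 and 107, a minimum of 100 molecules 233 lower, and leaving out each tag 395 to 770 higher and 433 to 628 lower, the highest without tag 8. Against NK cells (255 and 320) they gave 94 and 113 at 1000 molecules and 111 and 147 at 3000. Without other marker genes the counts were 120 and 159, and without cells holding a cell cycle molecule 134 and 158. A minimum of 100 molecules gave 198 lower, and leaving out each tag 367 to 409 higher, with 409 without tag 8 and 405 without tag 9. Settings chosen after seeing the data were a 1.5-fold rule (863 and 646, 731 and 822, 607 and 640), cells of 3000 to 8000 molecules (109 and 46, 104 and 95, 169 and 160), and, against CD4 T cells, no cells with melanoma or γδ genes (451 higher) and no deepest cells (423 higher). List genes against the other CD8 T cells (22 and 26) were 9 and 9 with the gate at 3000 molecules and 50 and 49 at 1.5-fold. The lower count was 12 at 1000, 11 by mean CPM, 11 without other marker genes and 6 without cells holding a cell cycle molecule. It was 7 in cells of 3000 to 8000 molecules. The higher count was 25 to 35 without each tag (35 without tag 10). Fewer cells or molecules entered most of these settings, and other causes were not tested.

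With the gate at 3000 molecules the share of gated cells was 3.39%, 6.27% and 5.71% of the cells of that depth, and in tag 10 it was 3.79% with at least 2 checkpoint molecules. The cycling share was 42.7% thinned and 59.4% with at least 2 checkpoint molecules. Median log2 ratios that changed sign were those of Ifit1 (0.26) and Ifit3 (0.076) against other CD8 T cells and of Ifit3 (0.087), Rsad2 (0.45), Rtp4 (0.013) and Txnip (0.53) against CD4 T cells. Against NK cells they were those of Bach2 (0.30), Entpd1 (-0.0015), Hspa1a (0.59 and 0.68), Hspa1b (1.25) and Tcf7 (0.013). Classes were paired by tag, since each ratio was formed within a tag, and no paired test was made. Depth per cell limits every share of cells with a transcript.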

Other observations

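The genes with the largest spread between the tags among the gated cells were Mlana, Gzmd, Pmel, Cyr61 and Tyrp1. The pigment genes Pmel and Tyrp1 stood at 165 and 163 CPM in tag 9 against 4.48 to 11.96 CPM in the other tags, and 310 of 313 Pmel and 296 of 309 Tyrp1 molecules of tag 9 came from single cells. Mlana had 173 of 179 and Cyr61 95 of 96 molecules of tag 9 in single cells.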
